A study of Mus musculus with 3 samples.

Results

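The genes described here encode the SR proteins, the hnRNP proteins and the core proteins of the spliceosome whose symbols start with Srsf, Hnrnp, Sf3a, Sf3b, Snrp, U2af or Prpf. The rule kept 68 of the 24982 gene symbols in the deposited tables and dropped 1 pseudogene name. It holds 11 Srsf, 20 Hnrnp, 3 Sf3a, 6 Sf3b, 12 Snrp, 3 U2af and 13 Prpf genes. RNA was sequenced from mouse LKS cells, bone marrow cells that lack lineage markers and carry Kit and Sca1, a fraction in which blood stem cells and their first progeny are found. One group came from wild-type (WT) recipients (2 libraries) and the other from recipients that lack CD73, the cell-surface enzyme that makes extracellular adenosine (1 library, the KO library). One field of the labels names the cells LLP, a term it does not explain, where the others name LKS cells. The labels give no age, strain or treatment, and leave unsaid whether the sorted cells descended from the donor or the recipient, and whether separate animals gave the WT libraries. The spread behind any p-value is thus that of these libraries alone and may be technical.

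Splicing removes introns in a large ribonucleoprotein machine, the spliceosome, with the small nuclear RNAs U1, U2, U4, U5 and U6. Of these, U1, U2, U4 and U5 each carry a ring of Sm proteins. U1 marks the start of an intron, and U2AF and the SF3A and SF3B complexes of U2 mark its end and branch point. Many PRPF proteins bring in the later particles or drive catalysis. SR proteins mostly favour and hnRNP proteins often oppose the use of an exon. Several of these genes, among them Sf3b1, Srsf2 and U2af1, are known for their recurrent mutation in human myelodysplastic syndromes, a disease of blood stem cells.

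The libraries were shallow, with totals over genes of 361638 (WT replicate 1), 324954 (WT replicate 2) and 264704 (KO), the order in which values for the libraries are given throughout. A total of 3 counts, the limit that a count of 0 allows, equals 8.30, 9.23 and 11.3 CPM (counts scaled to the library's total over genes). These limits and the intervals given further on cover counting error only, because, with no molecular identifiers, reads may repeat a molecule. The gap between the WT libraries was nearly as wide as that between KO and either of them. Over the 61 to 64 genes of the set with at least 10 counts in a pair of libraries, the median absolute log2 ratio was 0.61 between the WT libraries, 0.70 between KO and WT replicate 1 and 0.81 between KO and WT replicate 2. The gene for CD73, Nt5e, had 0 counts in each library and so gave no check of the labels. The genes of the sorting gate were present, Kit at 517, 637 and 555 CPM and Ly6a, which encodes Sca1, at 166, 58.5 and 136 CPM.

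Of the 68 genes, 63 had a count in each library, and Srsf12 and Snrpn, the latter an imprinted gene best known from brain, had none. The 68 genes together took 1.92% (95% Wilson interval 1.87 to 1.96), 1.66% (1.61 to 1.70) and 1.56% (1.52 to 1.61) of the counts. The share was lowest in KO, and the gap between the WT libraries was larger than that between KO and WT replicate 2. In these bulk samples, fewer cells of a type and less RNA per cell cannot be told apart. The KO library also held a higher share of Rn45s, the precursor of ribosomal RNA, at 1.33%, 1.46% and 2.07% of the counts, and the part of this in the results was not tested beyond leaving it out of the totals.

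The comparison of KO with WT asked how expression in LKS cells differs when the recipient has no CD73. None of the 62 genes of the set that passed the filter on low counts was called, 0 higher and 0 lower (edgeR quasi-likelihood test over 7984 genes, Benjamini-Hochberg adjusted p under 0.05), against 0.1% of all tested genes called higher and 0% called lower. The smallest adjusted p was 0.43, for Hnrnpk. At an unadjusted p under 0.05, Hnrnpk was lower and Prpf19 higher, against 6.51% of all tested genes lower and 3.53% higher. DESeq2 called 0 genes of the set (1 at an unadjusted p under 0.05), and limma on FPKM, the deposited values scaled to transcript length and library size, also called 0 (2 at an unadjusted p under 0.05). The fitted log2 fold change was positive in 28 and negative in 34 of the 62, with a median of -0.17 and a range from -2.81 to 2.22. Over all tested genes the median was -0.31, with 43.1% positive. Against WT replicate 1 alone the median was -0.073 for the set and -0.11 over all tested genes. Against WT replicate 2 alone it was -0.029 and -0.13. With a single KO library assumed to vary like the WT pair, these tests had little power, and a missed threshold does not show that levels were equal.

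**Figure D1:**
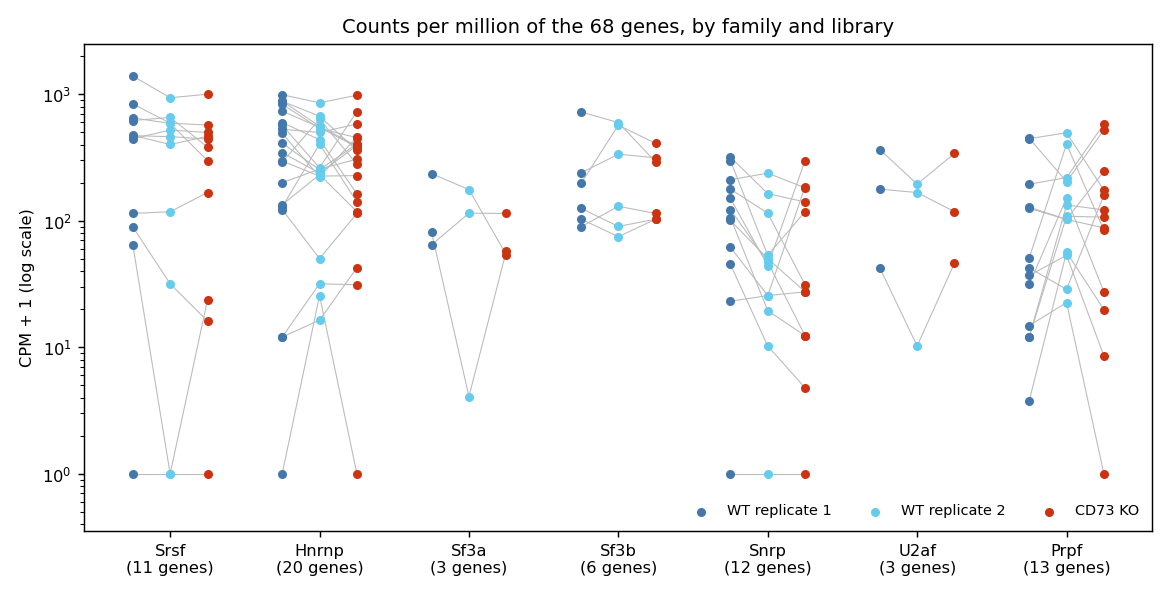
CPM plus 1 (log axis) of each of the 68 genes in the 3 libraries, grouped by family, with 1 point per gene and library and a grey line joining the values of a gene. Most Srsf and Hnrnp genes lie above 100 CPM in each library, while the Snrp and Prpf genes spread more widely.

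A size rule was set beside the test. It took genes that reached 50 counts in 1 library or more and whose CPM plus 1 in KO was 2-fold or further above both WT libraries, or below both. Of the 39 genes of the set with that depth, 1 was higher (Prpf19) and 5 were lower (Hnrnpk, Sf3a1, Sf3b1, Snrpb and Prpf8). Among all 2831 genes of that depth, 9.25% were higher and 17.9% lower by the same rule, so neither share stood above the background. KO lay above both WT libraries in 8 of the 39, below both in 18 and between them in 13, where the background was 29.1% above and 39.5% below. On TMM-scaled CPM the counts were 3 higher and 4 lower, because genes lay close to the bound. Just outside it were Snrpd1 (149, 43.1 and 298 CPM), Prpf4b (124, 102 and 246 CPM) and Srsf5 (649.8, 588 and 298 CPM), and just inside was Sf3b1 (724, 597 and 291 CPM).

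**Figure D2:**
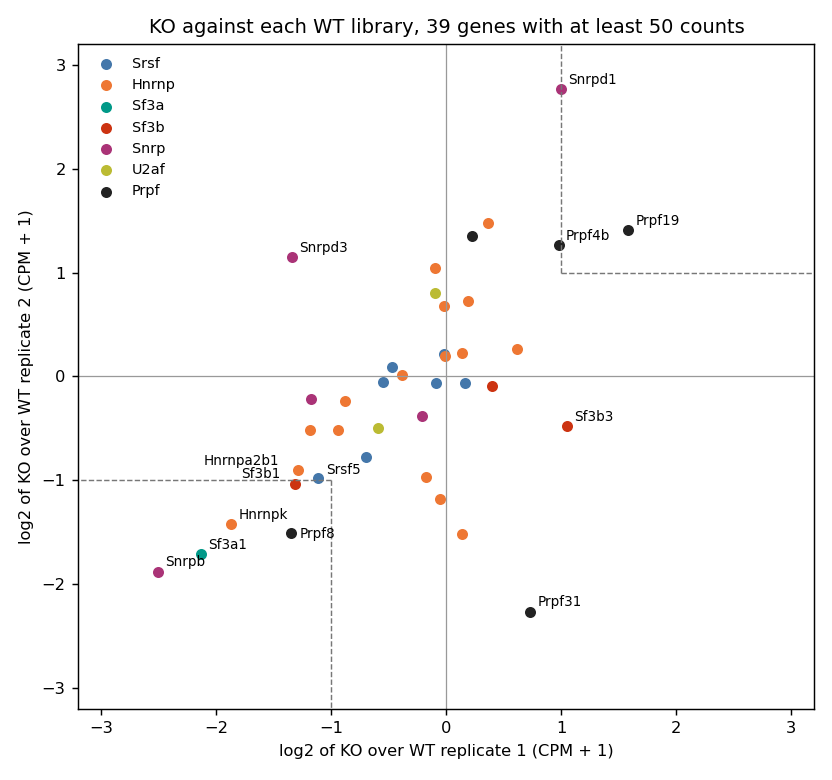
Log2 ratio of KO to WT replicate 1 (horizontal) and to WT replicate 2 (vertical), on CPM plus 1, for the 39 genes that reached 50 counts in a library, with dashed lines at the 2-fold bound of the size rule. Prpf19 lies inside the upper right corner and Snrpb, Sf3a1, Hnrnpk, Prpf8 and Sf3b1 inside the lower left, while Prpf31, Sf3b3 and Snrpd3 lie on opposite sides of 0 for the WT libraries.

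The genes past the size rule are shown with the 100 bases before their RefSeq start site (GRCm38.p6, the same assembly as mm10, 5′ to 3′ on the gene's strand), since they are the members that passed it. Capitals mark CCAAT boxes (CCAAT), GC boxes (GGGCGG) and ETS cores (CCGGAAG), searched on both strands. A motif on the other strand thus reads as its reverse complement. Prpf19 has 2 entries, of which the first is shown. Snrpb, the fifth of the lower genes, has no entry in the promoter table used and is named only.
Hnrnpk, chr13:58402118-58402217, minus strand: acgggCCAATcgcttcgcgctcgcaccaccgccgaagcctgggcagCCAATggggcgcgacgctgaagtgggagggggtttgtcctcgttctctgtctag
Sf3a1, chr11:4160254-4160353, plus strand: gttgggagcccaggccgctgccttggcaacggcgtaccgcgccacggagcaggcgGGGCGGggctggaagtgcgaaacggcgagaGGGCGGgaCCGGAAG
Sf3b1, chr1:55027479-55027578, minus strand: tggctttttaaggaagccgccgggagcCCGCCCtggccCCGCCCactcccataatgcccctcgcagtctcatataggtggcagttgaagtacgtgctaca
Prpf8, chr11:75486677-75486776, plus strand: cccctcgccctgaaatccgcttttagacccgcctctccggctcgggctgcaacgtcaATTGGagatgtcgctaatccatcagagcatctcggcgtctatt
Prpf19, chr19:10895131-10895230, plus strand: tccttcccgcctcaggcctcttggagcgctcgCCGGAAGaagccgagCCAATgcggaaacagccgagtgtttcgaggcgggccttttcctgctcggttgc

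The 4 lower genes shown did not share 1 of these motifs in the bases shown: Hnrnpk and Prpf8 hold the CCAAT box, Sf3a1 and Sf3b1 the GC box, and Sf3a1 the ETS core as well. Prpf19, which was higher, holds a CCAAT box and an ETS core. A match is a run of letters and no evidence of binding. Over the whole 300-base windows (250 before to 50 after the start), 59 of the 68 genes had 80 promoter entries. The GC box was in 63.8% of these and in 35.7% of all 32841 promoters, the ETS core in 31.2% and 8.86%, the CCAAT box in 47.5% and 37.4%, and the TATA box (TATAAA) in 8.75% and 13.6%. The promoters of the set were rich in CpG, with a median of 25 CpG per window against 7 over all promoters. By family, the GC box was in 13 of 14 Srsf promoters and in 5 of 14 Snrp promoters. The ETS core was in 3 of 3 Sf3a and 4 of 5 Sf3b promoters, and in 4 of 27 Hnrnp promoters.

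SR proteins carry RNA-recognition motifs and a tail rich in arginine and serine, and they bind exonic enhancers. Among them the WT libraries were close: none of the 7 genes with at least 50 counts differed by 2-fold between them, and the widest gap was 1.48-fold. Per length, Srsf2 (442, 313 and 304 FPKM), Srsf5 (428, 388 and 193 FPKM) and Srsf6 (395, 267 and 286 FPKM) were the highest of the family on average. Srsf2, also known as SC35, had 838, 591 and 570.4 CPM, so that KO was next to WT replicate 2. Srsf6 had the most counts of the set, with 504, 305 and 265 (1394, 939 and 1001 CPM), and KO lay between the WT libraries. Srsf5 had 235, 191 and 79 counts, a WT mean of 619 ± 43.9 CPM (SD, n = 2) against 298 CPM in KO, below both WT libraries. Its log2 fold change was -1.01 (SE 0.65, edgeR adjusted p 0.65).

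Srsf1, the prototype of the family, had 445, 520.1 and 499 CPM, and Srsf3, its smallest protein, 473, 400.1 and 465 CPM. Srsf7 had 470.1, 462 and 442 CPM. For these genes KO was within or just below the WT range. Srsf11 had 619, 655 and 382 CPM, with KO below both. Srsf10, which represses splicing once it is dephosphorylated, had 113, 117 and 166 CPM from 41, 38 and 44 counts. Srsf9 had 32, 10 and 4 counts, and Srsf4 23, 0 and 6 (Srsf4 was listed at 0 in WT replicate 2), levels at which the WT libraries themselves disagreed.

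The hnRNP proteins are abundant nuclear RNA-binding proteins that coat nascent transcripts. Hnrnpk, whose KH domains bind C-rich RNA, gave the smallest p of the set. It had 216, 142 and 43 counts (597, 437 and 162 CPM), so the WT mean was 517 ± 113 CPM (SD, n = 2) and KO was 2.69-fold below the nearer WT library and 3.68-fold below the other. The log2 fold change was -1.63 (SE 0.76, edgeR adjusted p 0.43). Hnrnpk lies on chromosome 13 (58391142 to 58403343, mm10), where exons of Rmi1 on the opposite strand overlap its exons by 330 bases. Rmi1 had 17, 2 and 35 counts, and the use of strand is not given in the sources used here. The deposited FPKM of Hnrnpk was listed at 0 in WT replicate 2 for each of its transcripts, despite the 142 counts, so FPKM gives no comparison for it.

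Hnrnpa2b1, which also sorts RNAs for transport, had 879, 671 and 359 CPM, with KO below both WT libraries (log2 fold change -1.07, SE 0.58, edgeR adjusted p 0.55). Hnrnpu, a scaffold protein of chromatin and RNA, had 885, 557 and 389 CPM. Hnrnpf, which binds G-runs, had 736, 548 and 382 CPM, and Hnrnpl, which binds CA repeats, had 835, 535 and 453 CPM. In these genes KO was the lowest library and WT replicate 1 the highest. WT replicate 2 lay nearer to KO than to WT replicate 1 for Hnrnpl, while for Hnrnpa2b1 it lay nearer to WT replicate 1.

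Other hnRNP genes did not share that order. Hnrnph1, the G-run binding relative of Hnrnpf, was the highest of the family per length (463, 400 and 471 FPKM) and had 993, 856 and 982 CPM, with KO between the WT libraries. Hnrnpab had 528, 499 and 582 CPM, a WT mean of 513 ± 20.9 CPM (SD, n = 2), with KO just above. Hnrnpm had 567, 262 and 729 CPM, and Hnrnpa0 489, 222 and 457 CPM. For both genes the gap between the WT libraries was over 2-fold. Hnrnpul1 (127, 403 and 139.8 CPM) and Hnrnpdl (290.3, 634 and 279.6 CPM) were high in WT replicate 2 alone, and KO was near WT replicate 1. Hnrnpc, which binds U-tracts, had 296, 225 and 227 CPM, and Hnrnpd, also known as AUF1 and a regulator of mRNA decay, had 409, 252 and 404 CPM.

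At the low end, Hnrnpa1 had 4, 5 and 11 counts. It is a near relative of Hnrnpa2b1 with many processed pseudogenes, the way the authors counted reads that fit several places is not given, and the 4, 5 and 11 counts are therefore uncertain. Hnrnph2 had 44, 16 and 30 counts, Hnrnph3 had 0, 8 and 0, and Hnrnpll, which regulates the splicing of the leukocyte antigen CD45, had 4, 10 and 8. Hnrnpr had 133, 231 and 117 CPM and Hnrnpul2 346, 237 and 393 CPM, with KO below both WT libraries for the former and above both for the latter.

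U2AF and the U2 proteins recognise the end of the intron. U2af2, which binds the polypyrimidine tract, had 365, 194 and 340.0 CPM, and U2af1, which reads the AG at the splice site, had 177, 166 and 117 CPM from 64, 54 and 31 counts. KO was within the WT range for U2af2 and below it for U2af1 (log2 fold change -0.51, SE 1.10, edgeR adjusted p 0.93). U2af1l4, a paralogue of U2af1, had 15, 3 and 12 counts. Exons of Psenen on the opposite strand overlap those of U2af1l4 by 119 bases and had 17, 35 and 36 counts.

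Sf3b1, the protein that holds the branch site within U2, had 262, 194 and 77 counts (724, 597 and 291 CPM). The WT mean was 661 ± 90.1 CPM (SD, n = 2), and KO was 2.05-fold below WT replicate 2 and 2.49-fold below WT replicate 1. The log2 fold change was -1.14 (SE 0.63, edgeR adjusted p 0.57). Sf3a1, which joins the SF3A complex to U2, had 85, 57 and 14 counts (235, 175 and 52.9 CPM), 3.32-fold and 4.44-fold lower in KO than in WT replicates 2 and 1 (log2 fold change -1.91, SE 1.20, edgeR adjusted p 0.64). Both genes had KO below the 2 WT libraries. Sf3a1 is on chromosome 11 (4160350 to 4182541) and Sf3b1 on chromosome 1 (54985169 to 55027481).

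The partners of these proteins in the same complexes gave other values. Sf3b2 had 238, 335 and 314 CPM, Sf3b3 196, 569 and 408 CPM, and Sf3b4 88.5, 129 and 113 CPM. Sf3b5 had 124, 89.2 and 102 CPM, and Sf3b6, which contacts the branch-point adenosine, had 102, 73.9 and 102 CPM. For each of these 5 SF3B genes KO lay between the WT libraries. Sf3a3 had 63.6, 114 and 113 CPM and Sf3a2 80.2, 3.08 and 56.7 CPM. The Sf3a2 values came from 29, 1 and 15 counts, and Plekhj1, whose exons overlap on the opposite strand by 429 bases, had 1, 34 and 42. KO lay between the WT libraries for both Sf3a2 and Sf3a3.

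The Snrp genes encode the Sm ring and proteins particular to U1 and U2. Snrpb, an Sm protein, had 64, 37 and 8 counts (177, 114 and 30.2 CPM), 3.77-fold and 5.86-fold lower in KO than in WT replicates 2 and 1 (log2 fold change -2.22, SE 1.42, edgeR adjusted p 0.65). It is on chromosome 2 (130171414 to 130179403). Snrpf had 44, 15 and 3 counts and Snrpe 36, 16 and 7, and in both the order of CPM was WT replicate 1, WT replicate 2, KO. Snrpd2 had 318, 163 and 139.8 CPM, with KO next to WT replicate 2. Snrpg had 210.2, 237 and 181 CPM, the smallest gap between the WT libraries within the ring (1.13-fold). Snrpd3 had 299, 52.3 and 117 CPM, a 5.71-fold gap between the WT libraries with KO inside it. Snrpd1 had 54, 14 and 79 counts (149, 43.1 and 298 CPM), with KO above both (log2 fold change 1.66, SE 1.002, edgeR adjusted p 0.62), although its WT libraries were 3.47-fold apart. None of the 7 genes of the ring was called.

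Among the proteins of single particles, Snrpa and Snrpc of U1 had 38, 6 and 3 and 16, 3 and 1 counts. Snrpa1 of U2 had 22, 8 and 49 counts (60.8, 24.6 and 185 CPM), 1 count short of the depth of the size rule, with KO above both WT libraries (log2 fold change 2.14, SE 1.30, edgeR adjusted p 0.63). Snrpb2 of U2 had 8, 8 and 7. Per length, Snrpg (537, 608 and 468 FPKM), Snrpf (970.4, 369 and 91.2 FPKM) and Snrpd2 (655, 337 and 290.3 FPKM) were the highest of the Snrp genes. The 970.4 FPKM of Snrpf rest on 44 counts and imply a length of 125 bases. The longest GENCODE transcript matched to its RefSeq transcript has 861 bases. Longer genes could differ too. In WT replicate 1, Sf3b5 implied 730 bases against an annotated 3841, and Prpf19 6130 against a median of 2134 over its transcripts. Srsf6 implied 3528 against 3527. FPKM ranks between genes are therefore uncertain, and the FPKM of the shortest mRNAs cannot be set against those of longer ones.

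Many PRPF proteins act in the later particles and in catalysis. Prpf8, the scaffold of the catalytic core, had 161, 161 and 46 counts (445, 495 and 174 CPM), so the WT mean was 470.3 ± 35.5 CPM (SD, n = 2) and KO was 2.56-fold and 2.85-fold lower than WT replicates 1 and 2. The log2 fold change was -1.39 (SE 0.77, edgeR adjusted p 0.57). Prpf19, the ubiquitin ligase at the heart of the complex that bears its name, had 70, 71 and 154 counts (194, 218 and 582 CPM). Its WT mean was 206 ± 17.6 CPM (SD, n = 2), and KO was 2.66-fold above WT replicate 2 and 3.01-fold above WT replicate 1. The log2 fold change was 1.54 (SE 0.73, edgeR adjusted p 0.44). The WT libraries differed 1.11-fold for Prpf8 and 1.13-fold for Prpf19, and KO stood apart on opposite sides. Prpf8 is on chromosome 11 (75486816 to 75509449) and Prpf19 on chromosome 19 (10895231 to 10909559).

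Prpf38b, the highest of the family by mean deposited FPKM (149, 67.5 and 174 FPKM), had 448, 203 and 521 CPM, with WT replicate 2 lowest. Prpf4b, a kinase of splicing factors, had 124, 102 and 246 CPM. Prpf6, a bridge within the tri-snRNP of U4, U5 and U6, had 15, 9 and 42 counts (log2 fold change 2.22, SE 1.42, edgeR adjusted p 0.65). KO was above both WT libraries in these 3 genes. The tri-snRNP genes Prpf31 (18, 131 and 22 counts), Prpf3 (4, 43 and 32) and Prpf4 (4, 35 and 28) differed 8.10-fold, 12.0-fold and 9.74-fold in CPM between the WT libraries. Prpf38a had 1, 18 and 5 counts and Prpf39 46, 33 and 23. Prpf40b had 13, 17 and 2, and Prpf18, a factor of the second step of splicing, had 5, 7 and 0. For these genes the difference between KO and WT depends on which WT library is used, or the counts are few.

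The rule of the set asks for a comparison of the families. Summed over its members, the Srsf family had 5154, 4302 and 3861 CPM and the Hnrnp family 8453, 6943 and 6547 CPM. Both were lowest in KO, with log2 ratios of KO to the WT mean of -0.29 and -0.23, and with WT means of 4728 ± 603 and 7698 ± 1068 CPM (SD, n = 2). Against WT replicate 2 alone the ratios were -0.16 and -0.085, and against WT replicate 1 alone -0.42 and -0.37. The Sf3a sum was 379, 292 and 223 CPM and the Sf3b sum 1474, 1794 and 1330 CPM. Their log2 ratios of -0.59 and -0.30 turned to 0.38 without Sf3a1 and 0.094 without Sf3b1. Each of these genes had the most counts of its family in both WT libraries, though not the highest FPKM on average. Against WT replicates 1 and 2 alone the log2 ratios were -0.77 and -0.39 for Sf3a and -0.15 and -0.43 for Sf3b. The Snrp sum was 1607, 782 and 1031 CPM, 2.06-fold apart between the WT libraries with KO between them, so its log2 ratio was -0.64 against WT replicate 1 and 0.40 against WT replicate 2. The U2af sum (583, 369 and 502 CPM) also had KO between, with log2 ratios of -0.22 and 0.44. The Prpf sum (1535, 2071 and 2131 CPM) was highest in KO, by 1.03-fold over WT replicate 2, with log2 ratios of 0.47 and 0.041 against WT replicates 1 and 2. An exact permutation over 3 libraries cannot give a p below 0.333, so no family sum was tested.

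**Figure D3:**
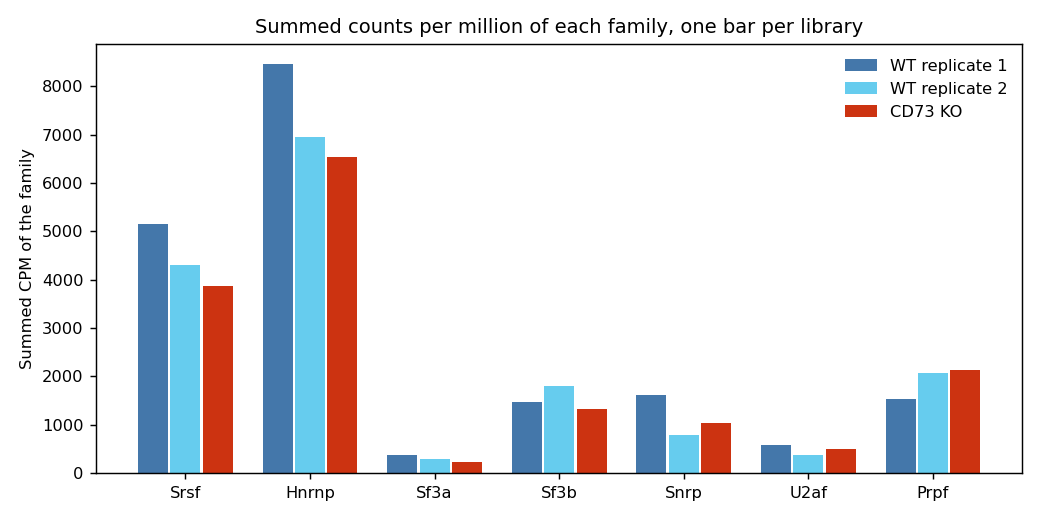
Summed CPM of each of the 7 families, with 1 bar per library and no error bar because each bar is a single library. The Srsf and Hnrnp bars are tallest in WT replicate 1 and shortest in KO, the Snrp bars differ most between the WT libraries (1607 and 782 CPM), and the Prpf bars of WT replicate 2 and KO are nearly level (2071 and 2131 CPM).

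As a share of the counts of the set, the composition was similar in the larger families. The Hnrnp genes held 44.1%, 41.9% and 41.9% and the Srsf genes 26.9% (95% Wilson interval 25.8 to 27.9), 25.99% (24.8 to 27.2) and 24.7% (23.4 to 26.05). The Prpf share was 7.999% (7.38 to 8.66) in WT replicate 1, 12.5% (11.7 to 13.4) in WT replicate 2 and 13.6% (12.6 to 14.7) in KO. The Snrp share was 8.37% (7.75 to 9.05), 4.72% (4.19 to 5.32) and 6.60% (5.88 to 7.40). The WT libraries thus differed by more than counting error in the Prpf and Snrp shares, and KO did not lie outside them by more than that error in either.

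Since the deposited tables list counts per RefSeq transcript, the set also shows how its own transcripts were covered. Of the 68 genes, 37 had over 1 transcript, up to 18 for Hnrnpc. Reads in shared exons are listed for every transcript that holds them, so these counts overlap. The intervals below treat the lowest count as part of the highest, which overlapping transcripts need not obey, so they are approximate. Of the 22 such genes with at least 35 counts in each library, 6 had a transcript under 80% of the highest in some library, a selection made after the values were seen. In Hnrnpa3 the lowest transcript (NM_001359971) had 32 of 72, 51 of 83 and 10 of 81 counts, which is 44.4% (95% Wilson interval 33.5 to 55.9), 61.4% (50.7 to 71.2) and 12.3% (6.85 to 21.3). The gene itself had 199, 255 and 306 CPM. In Hnrnpul1 the lowest transcript had 30.4% (19.1 to 44.8), 13.0% (8.26 to 19.8) and 62.2% (46.1 to 75.9).

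Srsf7 has a transcript that RefSeq lists as non-coding (NR_036615). SR genes are known to limit their own level through such non-productive transcripts. It had 170, 149 and 117 counts, against 156, 150 and 86 for the highest coding transcript. The non-coding transcript thus had 14 more counts than the coding one in WT replicate 1, 1 fewer in WT replicate 2 and 31 more in KO. The same difference had no shared order in Srsf3 (8, 0 and 12), Hnrnpa2b1 (3, 26 and 7), Hnrnpdl (0, 31 and 3) and Hnrnpu (-25, -60 and -1). The lowest transcript of Srsf7 was at 80.6% (74.0 to 85.8), 87.3% (81.1 to 91.7) and 64.1% (55.1 to 72.2) of the highest. That highest transcript was the non-coding one in WT replicate 1 and KO but a coding one in WT replicate 2, so the base of the percent differs. In Srsf10 the lowest transcript was at 39.0%, 42.1% and 18.2% of the highest. In Hnrnpd WT replicate 1 stood apart, at 72.3% against 100% in the other libraries, and in Hnrnpu WT replicate 2 did, at 66.9% against 92.2% and 99.0%. With 1 KO library none of these shares was tested.

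**Figure D4:**
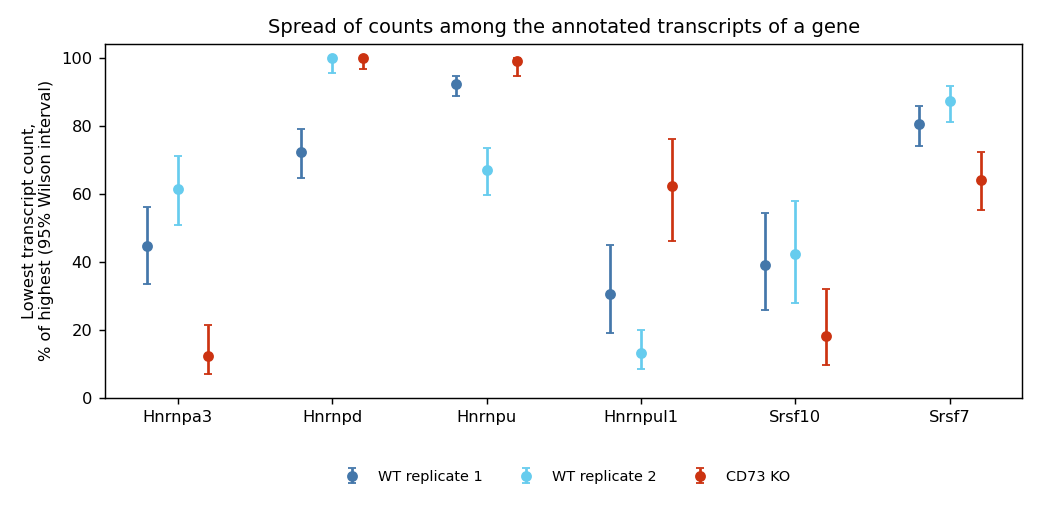
Counts of the transcript with the fewest counts as a percent of that with the most, for the 6 genes selected, with 1 point per library. The 95% Wilson intervals cover counting error only and are approximate, since they treat the lowest count as part of the highest. KO lies below both WT libraries for Hnrnpa3 (12.3%), Srsf7 (64.1%) and Srsf10 (18.2%, with intervals that overlap) and above both for Hnrnpul1 (62.2%). WT replicate 1 is the odd library for Hnrnpd and WT replicate 2 for Hnrnpu.

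Other genes of the pathway were read from 5 lists, and edgeR called 0 genes in each of them at an adjusted p of 0.05 (5, 0, 2, 5 and 1 at an unadjusted p under 0.05, in the order in which the lists follow). For further proteins of the snRNPs, 36 of 43 were tested, 15 of them positive, and the median log2 fold change was -0.13. For the Prpf19 complex and the catalytic spliceosome it was -0.04 over 26 genes, 12 of them positive, and for the exon junction complex and mRNA export -0.24 over 25, with 8 positive. For other splicing regulators it was -0.25 over 42, with 20 positive, and for kinases, importers and assembly factors -0.60 over 20, with 8 positive. The median over all tested genes was -0.31. In the same order, leaving out WT replicate 2 gave list medians of 0.14, 0.06, -0.35, -0.091 and -0.27 (-0.11 over all tested genes). Leaving out WT replicate 1 gave 0.062, -0.078, -0.33, -0.16 and -0.23 (-0.13 over all tested genes). The negative median of the further snRNP proteins thus appeared only where both WT libraries were fitted together.

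By the size rule, and in the same order, 1 of 23, 0 of 8, 1 of 12, 1 of 39 and 1 of 9 genes with enough counts were higher in KO, and 3, 2, 1, 7 and 2 were lower, beside the 9.25% and 17.9% of all genes. Sart1, which recruits the tri-snRNP, had 58, 11 and 131 counts, and Thoc1, a subunit of the THO export complex, 10, 10 and 97. Tra2a, a regulator related to SR proteins, had 73, 41 and 118, and Tnpo3, the importer of SR proteins, 51, 32 and 81. Tra2b, the paralogue of Tra2a, was lower in KO by the same rule, with 82, 68 and 15. On the lower side, Tardbp, the RNA-binding protein TDP-43, had 160, 183 and 45 counts, and Mbnl1 114, 66 and 22. Eif4a3, the helicase of the exon junction complex, had 83, 64 and 8, and Snrnp40, a protein of U5 that binds Prpf8, had 60, 40 and 2. Bud31 had 25, 66 and 6 counts, Slu7 13, 60 and 3, Wdr77, a partner of the methylase of Sm proteins, 38, 75 and 7, and Tnpo2, an importer, 90, 19 and 1. Usp39 (64, 2 and 0 counts) and Snrnp25 (50, 5 and 0) were lower as well, with a WT pair far apart.

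The 14 genes of the gate and of stem cells summed to 2649, 2923 and 1953 CPM, lowest in KO. Of the 13 tested, 4 had a positive log2 fold change. The stem cell genes Mecom (31, 21 and 0 counts) and Slamf1 (3, 9 and 0) were at 0 in KO. Procr had 14, 14 and 13 counts and Spi1 4, 16 and 34. Lists chosen as markers of cells outside the gate also differed in summed CPM between the libraries. Whether LKS cells themselves express the genes behind these sums was not tested. The summed CPM of the 10 mature neutrophil genes was 827, 1114 and 378, with Ly6g at 0 throughout, and that of the 11 erythroid genes 705, 419 and 876, with 5 at 0 throughout, Klf1 among them. That of the 10 monocyte and macrophage genes was 191, 680.1 and 457, with Fcgr1 at 0 throughout. The 8 B lineage genes summed to 16.6, 64.6 and 7.56 CPM and the 8 T and NK lineage genes to 194, 105 and 155 CPM, with 4 and 5 genes at 0 throughout, Cd79a and Cd3e among them. Nkg7 alone gave 188, 98.5 and 155 CPM of the T and NK sum. The 7 dendritic cell genes gave 99.5, 52.3 and 102 CPM and the 10 stroma and endothelium genes 252, 292 and 132 CPM, with 4 and 7 genes at 0 throughout. The dendritic sum came mostly from Clec10a (32, 17 and 0 counts) and Clec9a (0, 0 and 27), which moved in opposite directions. The stroma and endothelium sum came mostly from Pecam1 (52, 62 and 26 counts) and Pdgfrb (39, 33 and 1). The part of these markers in the values of the splicing genes was not tested.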

How the data were processed

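RNA from sorted LKS cells was sequenced in 2 WT libraries and 1 KO library, with groups taken from the sample titles. The authors deposited whole-number counts for each RefSeq transcript. Their deposited FPKM values were split by the authors among the transcripts of a gene, as the values show. Per the submitters' processing notes STAR and mm10 were used, with no versions or roles. Neither the counting tool nor the use of strand is stated. The gene count was the highest count over a gene's transcripts, and gene FPKM the sum over them. The plan had named the FPKM of the transcript with the highest count, which does not suit values split among transcripts.

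The main test was that of edgeR 4.0.16, run in R 4.3.3 (filterByExpr, TMM, quasi-likelihood F-test, Benjamini-Hochberg over 7984 genes, threshold 0.05). SE was taken as the size of the log2 fold change over the root of its F value. The fit has 1 residual degree of freedom and a common biological coefficient of variation of 0.81. Alternatives used DESeq2 1.42.0, limma 3.58.1 on log2(FPKM + 1), other scaling and filters, and each WT library left out. The scripts were tested on simulated data. CPM uses library totals, and the size rule adds a pseudocount of 1. Named genes were members past the test or size rule, members with at least 50 counts in a library and 0 in another, the 3 with the highest mean FPKM in each family, and up to 4 per pathway list past the size rule, by mean CPM. Other members are named to account for the set, and Tra2b is named beside Tra2a. A few genes are not reported here. Coordinates are from GENCODE M21 and promoters from RefSeq. The members and lists were chosen with earlier results of these data known.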

Additional observations from a re-analysis of the deposited data

How the results depend on the processing

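No gene of the set was called under edgeR with library totals, upper-quartile factors, no filter, a stricter filter or mean transcript counts, under DESeq2 or under limma on FPKM. With 1 library against 1 no test was possible. The count of genes past the size rule and higher in KO went from 1 to 3 with TMM factors or a bound of 1.5-fold, and to 2 with FPKM or with totals without Rn45s. The count of lower genes went from 5 to 3 with a minimum of 100 counts and to 8 with the 1.5-fold bound. Leaving out a WT replicate gave 2 to 7 higher and 8 to 10 lower genes. The median log2 fold change of -0.17 became -0.22 with library totals, -0.24 with upper-quartile factors, -0.12 with the stricter filter, -0.22 with mean transcript counts and -0.022 with FPKM, and -0.073 to -0.029 with a WT replicate left out. Without Sf3a1 the log2 ratio of the Sf3a sum was 0.38, and without Sf3b1 that of the Sf3b sum was 0.094. With FPKM the ratios of the full sums were -0.083 and -0.085. The Snrp sum changed sign without WT replicate 1 (0.40), and the U2af sum, 0.08, without WT replicate 2 (-0.22), without U2af2 (-0.28) and with FPKM (-0.06). On FPKM the log2 fold change of Hnrnpk was 2.09, where FPKM was listed at 0 in WT replicate 2. Versions with the FPKM of a single transcript were not run, and FPKM summed over transcripts and totals without Rn45s were chosen after seeing the data. No paired analysis was possible because the KO library carries no replicate number. Depth limits these results: only 39 of the 68 genes reached 50 counts in a library.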
